A study of Arabidopsis thaliana with 18 samples.

Results

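The 58 genes described here encode the proteins Sa to S19 of the small (40S) subunit of the cytosolic ribosome of Arabidopsis thaliana. They were chosen by locus identifier from the deposited table of counts per gene, which lists 33602 loci, and they fall into 21 families of 2 to 4 paralogs. The libraries came from developing seeds collected 9 to 10 days after flowering. Of the 4 groups of 3 libraries used, AtWT and AtWTtr came from the wild type Col-0, and AtBD and AtBDtr from the badc1/badc3 double knockout. BADC1 and BADC3 are inhibitory subunits of the plastid acetyl-CoA carboxylase, the enzyme that starts fatty acid synthesis. The study also made plants of both genotypes that express HF-RPL18, a His-FLAG-tagged protein of the large ribosomal subunit, under a soybean glycinin promoter, which is a seed storage protein promoter, and it isolated tagged ribosomes with their RNA. The meaning of "tr" in the titles AtWTtr and AtBDtr is given in no label, and these 6 are called tr libraries. The other 6 of the 18 samples of the study, a first set with the same genotypes, were not used here.

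The 40S subunit binds the messenger RNA and holds the decoding centre, where codons are matched with transfer RNAs. Each ribosome carries a single copy of each of these proteins, and in plants each protein is encoded by a small gene family, so several paralogs can fill the same position. Loss of single plant paralogs is known to give embryo lethality or the pointed first leaf phenotype, depending on the gene. The share that each paralog takes of its family's messenger RNA is the quantity that the text turns on. It is given as counts per kb of exon divided by the family's sum, and it does not depend on how libraries are scaled to each other.

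Family S18 shows how alike the paralogs are and how their reads can still be told apart. The coding starts below are the first 90 coding bases, with capitals where the paralogs of the family differ, read from the TAIR10.1 genome. In S18, which lies near the site where the transfer RNA of the growing chain is held, the 3 proteins were 100% identical while their coding sequences were 87.1% to 91.1% identical. The genes lie at chr1:8067864-8069356 (AT1G22780, plus strand), chr1:12370065-12371554 (AT1G34030, minus strand) and chr4:6173712-6175200 (AT4G09800, plus strand).
AT1G22780: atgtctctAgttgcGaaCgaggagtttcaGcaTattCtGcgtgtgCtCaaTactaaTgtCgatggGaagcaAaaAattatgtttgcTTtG
AT1G34030: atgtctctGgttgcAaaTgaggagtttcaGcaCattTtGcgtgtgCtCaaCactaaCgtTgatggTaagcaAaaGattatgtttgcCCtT
AT4G09800: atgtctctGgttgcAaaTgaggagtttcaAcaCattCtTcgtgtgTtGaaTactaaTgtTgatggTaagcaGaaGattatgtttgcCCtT
Differences stood at 18 of the 90 positions. None of the 50-base words in the exons of these 3 genes occurred elsewhere in the genome.

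The stretches before many members carry sequence elements that are common in plant ribosomal protein promoters. The 250 bases before the annotated start of the 2 main S15 genes are shown because their shares differed between the tr libraries and the others. Any site II element (TGGGCC or TGGGCT) or telo box (AAACCCTA) on either strand is in capitals. They lie at chr1:1143131-1143380 and chr5:2956684-2956933 in TAIR10.1, both on the minus strand.
AT1G04270 upstream: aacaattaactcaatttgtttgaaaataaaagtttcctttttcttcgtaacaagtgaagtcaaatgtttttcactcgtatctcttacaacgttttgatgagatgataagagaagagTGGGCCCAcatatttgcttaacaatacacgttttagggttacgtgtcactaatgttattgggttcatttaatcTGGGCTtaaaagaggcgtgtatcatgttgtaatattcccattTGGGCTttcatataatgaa
AT5G09510 upstream: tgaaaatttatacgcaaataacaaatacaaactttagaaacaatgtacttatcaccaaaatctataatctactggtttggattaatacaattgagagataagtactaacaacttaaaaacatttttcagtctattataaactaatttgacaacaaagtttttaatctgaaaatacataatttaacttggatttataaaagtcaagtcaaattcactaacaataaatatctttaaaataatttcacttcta
AT1G04270 had 4 site II matches, of which a pair on opposite strands overlap, and no telo box, and AT5G09510 had neither element in this window. At least 1 site II match stood before 36 of the 58 members (62.1%), against 19.2% of 27443 nuclear protein-coding genes, and a telo box before 10 members (17.2%), against 4.49%. These matches are letters in a window and no measure of binding.

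The 12 libraries held 16977673 to 32547007 counts each. CPM here are counts scaled by the library total and its TMM factor, a scaling that sets most genes level between libraries. BADC1 and BADC3 followed the labels. BADC1 stood at 65.7 to 80.0 CPM in AtWT and at 1.61 to 2.61 in AtBD. It stood at 42.3 to 72.0 CPM in AtWTtr and 1.32 to 3.13 in AtBDtr. The seed label was met by embryo genes for storage proteins and oleosins, all 5 of which were detected. That list differed between the library types, and AtBD also stood above AtWT. Its summed level was 45033 to 56612 CPM in AtWT, 64261 to 75874 in AtBD, 144302 to 214893 in AtWTtr and 143425 to 232610 in AtBDtr. The 5 seed coat genes summed to 168 to 231 CPM in AtWT, 75.3 to 134 in AtBD, 20.1 to 29.3 in AtWTtr and 20.9 to 37.1 in AtBDtr, with the seed coat transporter gene TT12 at or near 0 throughout. The 3 silique wall genes summed to 41.4 to 50.8, 29.2 to 41.6, 5.01 to 6.22 and 3.86 to 6.28 CPM in the same order. The 4 endosperm genes summed to 2297 to 3284 CPM in AtWT and 2591 to 4051 in AtBD, and to 5924 to 16286 in AtWTtr and 8577 to 13484 in AtBDtr, nearly all of it from EPR1. The endosperm gene RGE1 went the other way, with means of 5.32 CPM in AtWT, 3.49 in AtBD, 0.453 in AtWTtr and 0.199 in AtBDtr, and AGL62 and FWA were below 1 CPM in the mean of every group. The part of these lists in each tr or genotype result below was not tested. In such bulk samples, fewer cells of a type and less RNA per cell cannot be told apart.

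**Figure D1:**
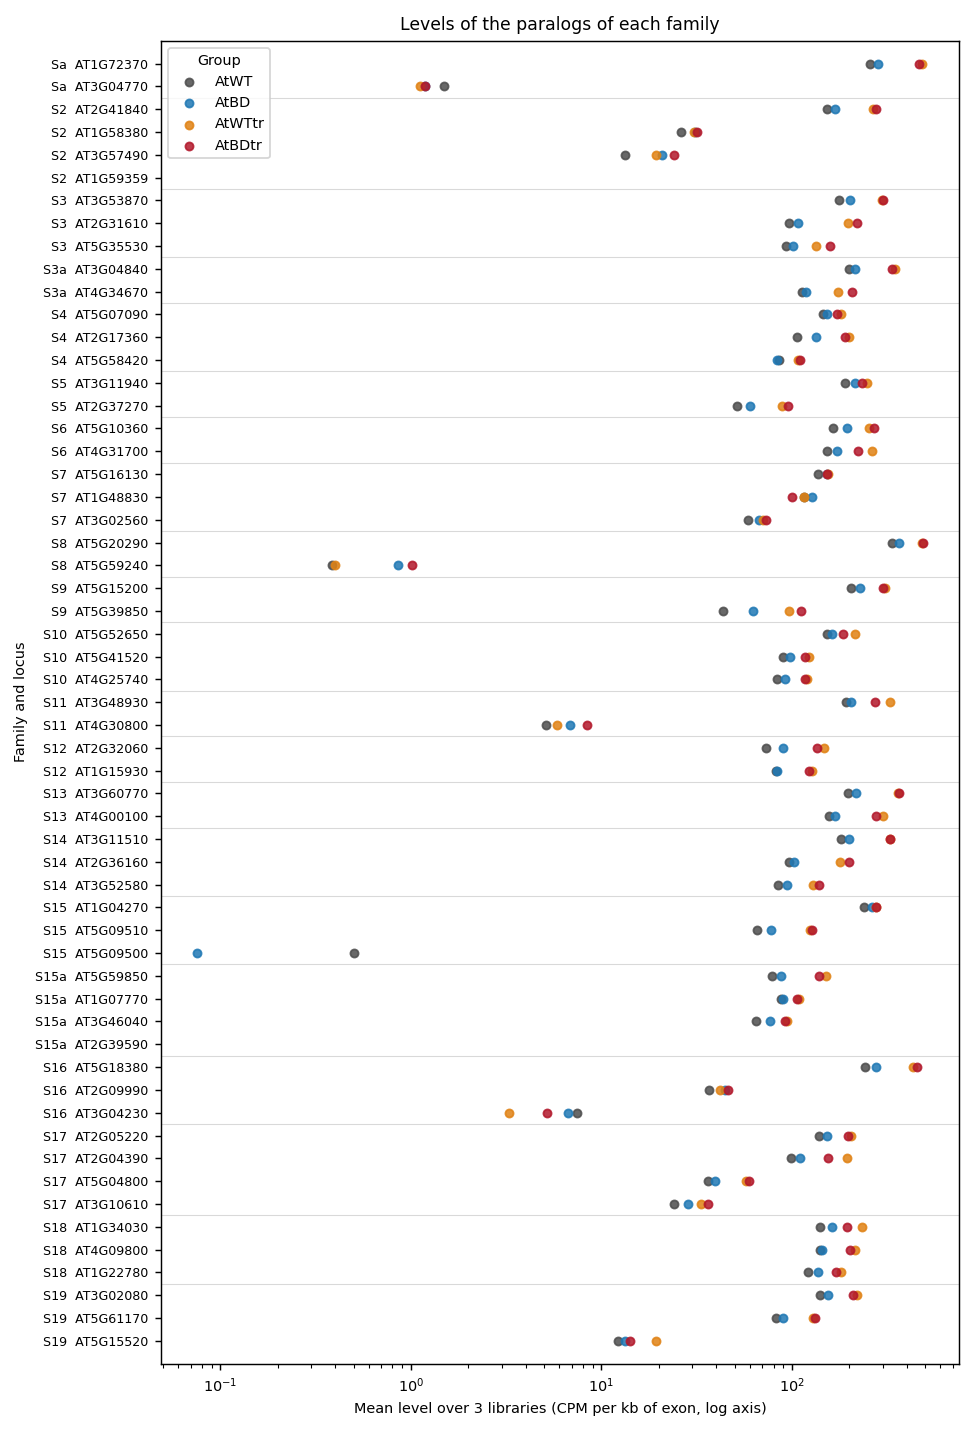
Mean level of paralogs in CPM per kb of exon over the 3 libraries of a group, on a log axis, by family, with 1 colour per group. AT1G59359 and AT2G39590 had no counts and AT5G09500 none in the tr libraries, so those points are missing; within most families the leading paralogs stand within a few fold of each other, while Sa, S8 and S16 rest on 1 gene.

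Every family was expressed, and most drew on more than 1 paralog. Levels were compared per length, as CPM per kb of exon on the TMM scale, a library scaling that sets most genes level between libraries. The family sums, averaged over 12 libraries, ran from 215 CPM per kb for S12 to 519 for S3. S14 (513), S13 (509) and S18 (509) followed S3 closely, and their spread over libraries was far wider than these gaps.

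Single paralogs covered a much wider range than the families. The highest was the S8 gene AT5G20290, at 335 ± 81.0 CPM per kb in AtWT, 364 ± 40.9 in AtBD, 482 ± 58.9 in AtWTtr and 487 ± 84.8 in AtBDtr (SD, n = 3). Next was AT1G72370, P40, which encodes Sa, a protein on the solvent side of the subunit, at 256 ± 42.3, 284 ± 17.6, 480 ± 109 and 466 ± 93.7 CPM per kb. These leading pairs overlapped within their spread. The S16 gene AT5G18380, whose protein reaches towards the bound transfer RNA, came next with a mean of 350 CPM per kb over the 12 libraries, and the S13 gene AT3G60770 followed with 285. In Sa and S8 a single gene made up nearly all of the family, with mean shares of 99.6% and 99.8%. In S6 the shares were close to even: AT5G10360 (EMB3010) held 52.5% and AT4G31700 (RPS6) 47.5% on average. S6 is the protein that S6 kinase phosphorylates downstream of the growth regulator TOR.

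A few members were nearly silent. Counts were 0 in all 12 libraries for AT1G59359 (S2) and AT2G39590 (S15a), which allows at most 0.0385 to 0.0499 CPM per group when 3 counts are taken as the limit. For AT1G59359 this limit does not bear on expression, because 100% of its exonic 50-base words also occur elsewhere in the genome. AT5G09500, which lies beside AT5G09510 in the S15 family, had 2 to 21 counts in AtWT, 0 to 3 in AtBD and 0 in all tr libraries. These 3 members failed the filter on low counts, and the other 55 were tested. AT5G59240 (S8) passed it with 0 to 34 counts per library and carries no weight in what follows.

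Paralogs of several families made up different shares in the tr libraries, in both genotypes. The leading paralog's share differed in 10 of 21 families by an exact two-sided permutation test within genotypes at p under 0.05, whose smallest possible value is 0.005. In 6 of these families, among them S2, S5, S15, S15a and S16, the shares of tr and other libraries did not overlap in either genotype. Without 1 library at a time, 8 to 10 families differed. Shares without division by exon length also gave 10 families.

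S15 was one of them. S15 sits close to the decoding centre, and the proteins of AT1G04270 (RPS15) and AT5G09510 were 99.3% identical. The share of AT1G04270 was 79.8%, 76.2% and 79.5% in AtWT and 77.0%, 77.7% and 76.8% in AtBD. It was 65.8%, 71.4% and 70.2% in AtWTtr and 68.8%, 67.1% and 69.7% in AtBDtr. The groups did not overlap, and the tr libraries were lower by 8.99 points in the mean (difference -8.99, exact permutation p = 0.005). AT5G09510 held nearly all of the rest, so its share had to rise, from 21.3% ± 1.92 in AtWT to 30.9% ± 2.97 in AtWTtr (SD, n = 3). On the TMM scale the mean level of AT5G09510 was 87.5 CPM in AtWT and 166 in AtWTtr, and that of AT1G04270 was 220 and 256.

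The shares of the S15a paralogs with identical proteins moved in opposite directions. AT1G07770 (RPS15A) and AT5G59850 encode the same 130 residues from coding sequences that are 85.2% identical. AT5G59850 made up 33.8%, 33.5% and 34.6% of the family in AtWT and 41.3%, 40.8% and 45.7% in AtWTtr. In the mutant it made up 36.9%, 33.9% and 33.5% in AtBD and 41.2%, 41.0% and 41.0% in AtBDtr. The mean difference was 7.46 points (exact permutation p = 0.005), while AT1G07770 differed by -5.89 points (p = 0.01, exact permutation). On the TMM scale the mean level of both genes was higher in the tr libraries. AT1G07770 had 144 CPM in AtWT, 179 in AtWTtr, 148 in AtBD and 176 in AtBDtr. AT5G59850 had 66.2, 127, 74.4 and 117 CPM in the same order. For AT1G07770 11.1% of 50-base words occur elsewhere, and 11.1% of the exonic bases of AT5G59850 overlap a neighbouring gene on the opposite strand, so part of their counts is uncertain.

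In S5 the minor gene gained. RPS5A (AT3G11940), known as a gene of dividing cells and of the embryo, made up 77.0%, 81.4% and 76.9% of the family in AtWT and 77.8%, 79.0% and 77.5% in AtBD. Its share was 73.8%, 73.8% and 73.7% in AtWTtr and 70.3%, 70.8% and 71.5% in AtBDtr, below all other libraries. RPS5B (AT2G37270) accordingly rose by 5.94 points (exact permutation p = 0.005).

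In S16 the leading gene gained instead. AT5G18380 made up 84.4% ± 0.132 in AtWT, 84.4% ± 1.31 in AtBD, 90.5% ± 0.784 in AtWTtr and 89.6% ± 1.74 in AtBDtr (SD, n = 3), a difference of 5.62 points (exact permutation p = 0.005). Its coding sequence is 98.2% identical to that of AT2G09990, which fell by 4.17 points, so reads may be split wrongly between them. The least expressed S16 gene, AT3G04230, fell from 2.61% ± 0.104 to 0.704% ± 0.175 in the wild type and from 2.03% ± 0.256 to 1.05% ± 0.349 in the mutant, and it shares no 50-base word with other genes.

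The leading share also differed in 5 further families. In S2, part of the channel through which the messenger RNA enters, AT2G41840 differed by 5.49 points (p = 0.005), in S4 AT5G07090 by -5.62 points (p = 0.01) and in S9 AT5G15200 by -6.12 points (p = 0.01), each by the exact permutation test. The partners that gained were AT2G17360 in S4 (6.95 points) and AT5G39850 in S9 (6.12 points). In S2 the wild-type groups were only just apart, with AT2G41840 at 81.09% in AtWT replicate 1 and 81.14% in AtWTtr replicate 2. Of the 50-base words of the S2 genes AT1G58380 and AT1G59359, 27.7% and 100% occur elsewhere, so the shares of this family are uncertain. The S12 gene AT2G32060 differed by 3.66 points (exact permutation p = 0.04), and in Sa AT1G72370 moved only from 99.4% to 99.8% in the wild type (exact permutation p = 0.02 over both genotypes). Among paralogs that do not lead, AT2G31610 of S3, another protein of the entry channel, gained 5.43 points and AT1G48830 of S7 differed by -4.53 points (exact permutation p = 0.005 for each).

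The leading shares of S3a, S6, S8, S10, S13, S14, S18 and S19 had differences between -1.03 and 0.241 points, none past the test. In S14 the paralogs that do not lead did pass it. AT2G36160 differed by 2.64 points (exact permutation p = 0.02) and AT3G52580 by -2.88 points (exact permutation p = 0.035). In S18, whose proteins are identical, AT1G34030 held 34.6% ± 2.20 in AtWT, 36.3% ± 1.58 in AtBD, 37.1% ± 3.23 in AtWTtr and 34.2% ± 0.896 in AtBDtr (SD, n = 3). The difference of 0.207 points was smaller than these spreads (exact permutation p = 0.885). For S13 the difference was -0.0027 points, with RPS13A (AT4G00100), one of the pointed first leaf genes, at 41.2% to 50.7% in all libraries. For S3 (p = 0.1), S7 (p = 0.23) and S17 (p = 0.065) the leading share missed the threshold of the exact permutation test, which does not show that it stayed the same. Among their other paralogs, AT5G35530 of S3 differed by -2.64 points (exact permutation p = 0.03) and AT2G04390 of S17 by 3.85 points (exact permutation p = 0.035). Counting every paralog, leading or not, the share of 29 members passed this test at unadjusted p under 0.05. Shares within a family depend on each other, so these are not separate tests. In families of 2 paralogs both give the same p. The 29 include AT5G09500 of S15, which failed the filter on low counts. In S17 AT2G04390 and AT2G05220 share 31.6% and 39.96% of their 50-base words with other loci, and their split is uncertain.

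**Figure D2:**
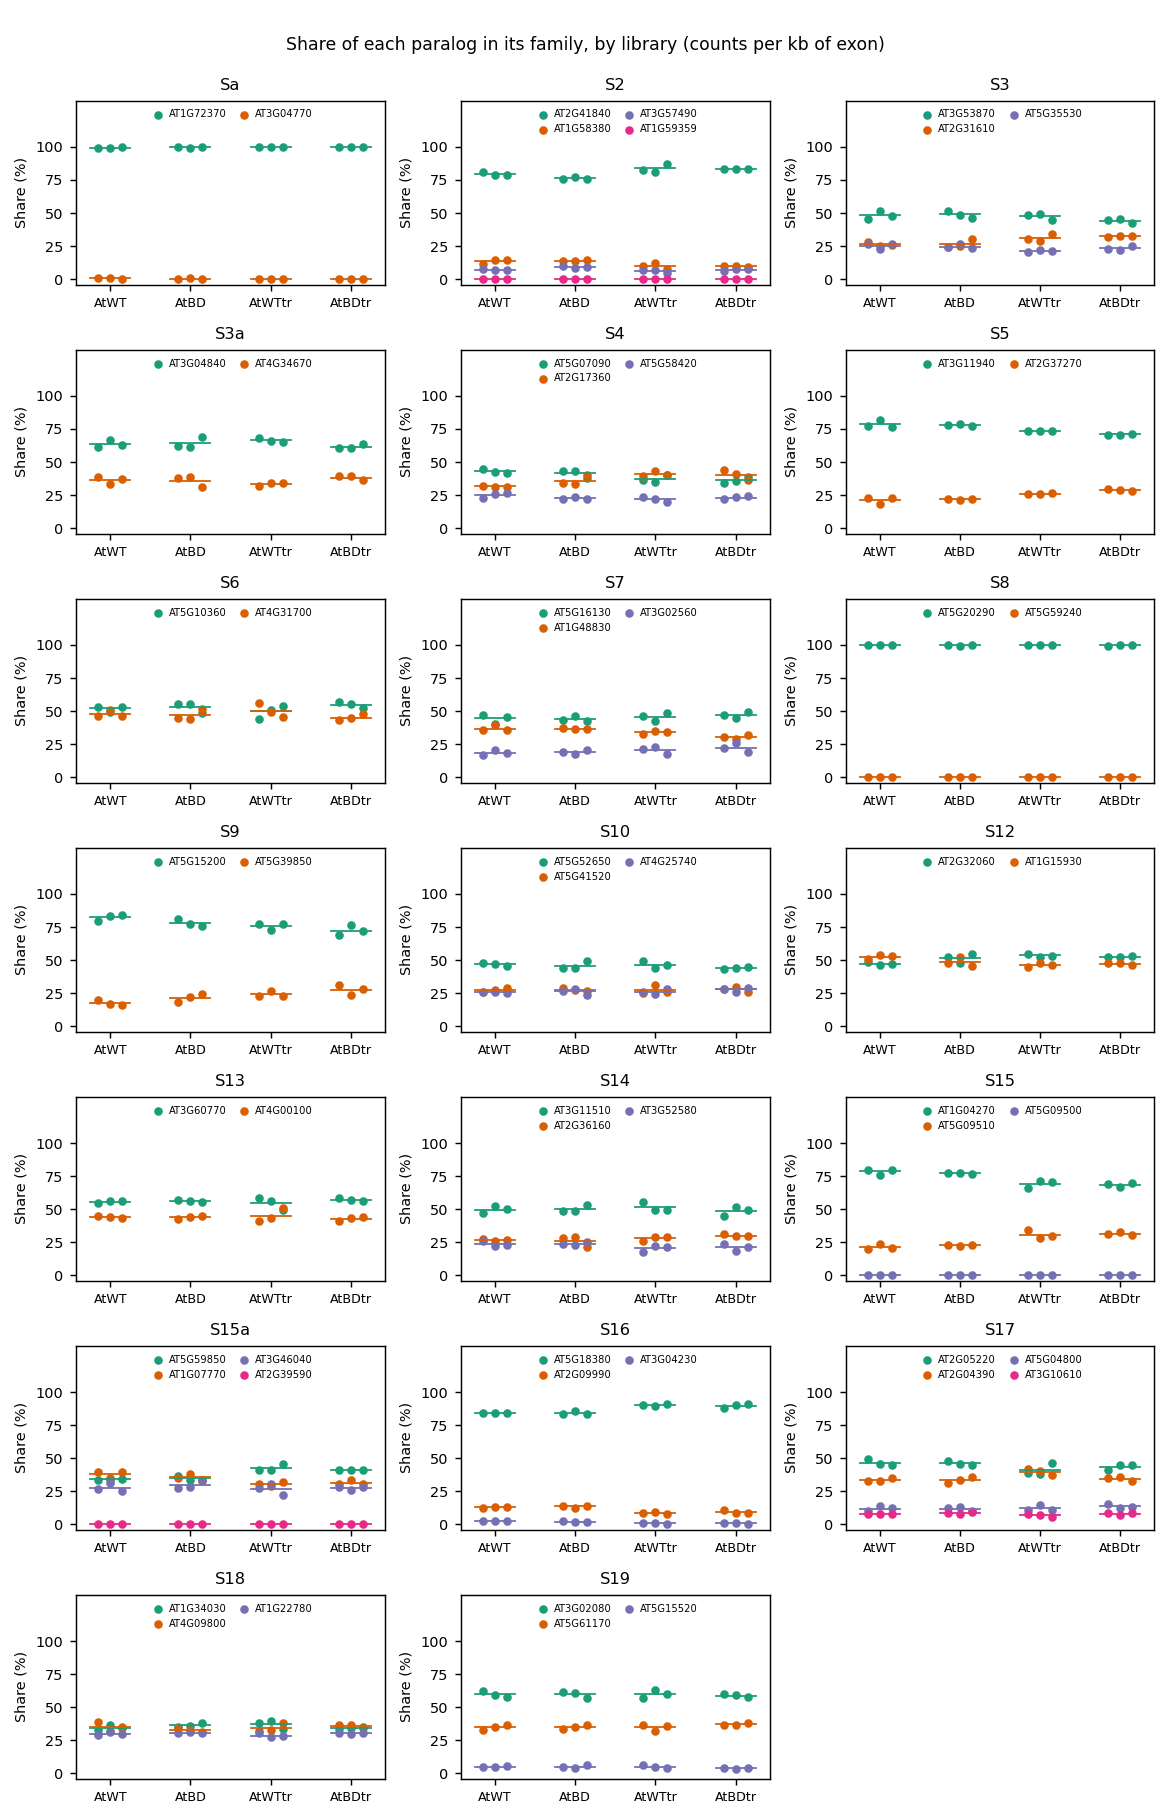
Share of each paralog in its family in percent, from counts per kb of exon, with 1 panel for each of the families shown, 1 point per library, a line at each group's mean and a colour per paralog. The tr libraries stand apart in S15, S15a, S5, S16 and, narrowly in the wild type, S2, while the S18 and S13 shares overlap between the groups compared.

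The level of the members as a whole depended on the scale. Of all counts, the 58 genes took 0.844% to 1.08% in AtWT, 0.859% to 1.01% in AtBD, 0.652% to 0.999% in AtWTtr and 0.582% to 0.939% in AtBDtr, so the tr libraries overlapped the others and leaned lower. On the TMM scale the same genes summed to 5700 to 8019 CPM in AtWT, 6943 to 7784 in AtBD, 8679 to 11590 in AtWTtr and 8502 to 11885 in AtBDtr, with all tr libraries above all others. The TMM factors were 1.18 to 1.52 in the other libraries and 0.64 to 0.917 in the tr libraries, beside the higher level of the embryo list in the latter. Changes below are therefore changes relative to most other genes.

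**Figure D3:**
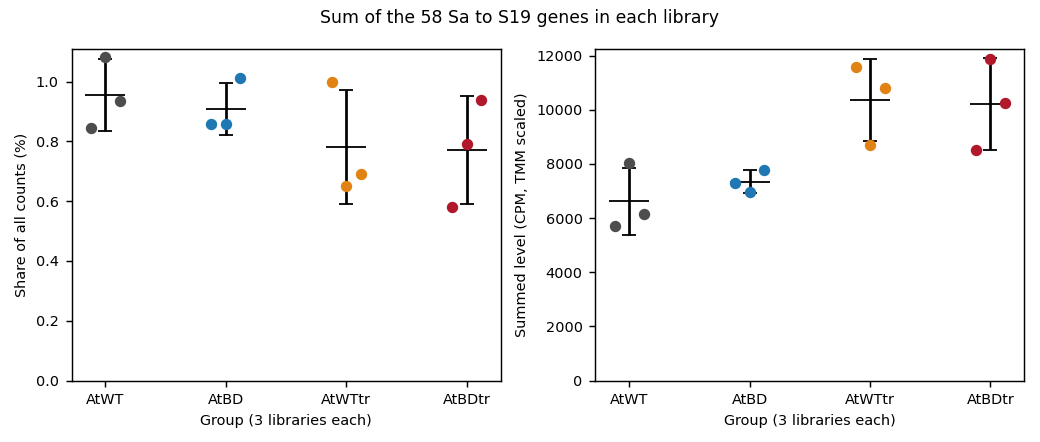
Left, the share of all counts of a library that fell on the 58 genes, in percent; right, their summed level in CPM after TMM scaling, by group, with 1 point per library, the mean as a bar and the SD as error bars. On the left the tr libraries overlap the others and lean lower, and on the right all 6 stand at 8502 CPM or more while the others reach at most 8019.

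Relative to other genes, many members were higher in AtWTtr than in AtWT. Of the 55 tested, 29 were higher, 1 was lower and 25 were not called (edgeR's quasi-likelihood test, Benjamini-Hochberg adjusted p under 0.05 over all 19376 genes tested), against 15.2% of all genes called higher and 19% called lower. The 29 fell into 18 of the 21 families. The median log2 fold change of the members was 0.62, against -0.04 for all genes. With library totals in place of TMM, the median of all genes moved by -0.95. Of the members, 0 were then called higher and 9 lower, against 420 and 10177 of all 19376 genes. The members' median was then -0.33, still 0.66 above that of all genes.

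Leading the list was AT5G39850 of S9, a protein that helps shape the messenger RNA entry site. Its level was 41.3, 54.5 and 39.8 CPM in AtWT and 106, 105 and 91.8 CPM in AtWTtr. The groups lay far apart, with a log2 fold change of 1.16 (SE 0.177, edgeR adjusted p = 0.000113). AT2G31610 of S3 stood at 115, 124 and 110 CPM in AtWT and 228, 182 and 305 CPM in AtWTtr, a log2 fold change of 1.03 (SE 0.203, edgeR adjusted p = 0.000994). AT2G32060 of S12 stood at 65.1, 114 and 80.1 CPM in AtWT and 219, 138 and 166 CPM in AtWTtr, with a log2 fold change of 1.01. Next by log2 fold change were AT2G04390 of S17 (0.97), RPS13A (0.94), AT5G59850 of S15a (0.94), AT5G09510 of S15 (0.92), AT1G72370 of Sa (0.90), AT2G17360 of S4 (0.89) and AT2G36160 of S14 (0.89). Both S3a genes, both S6 genes and all genes of S3, S13 and S14 were among the 29.

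One member was lower. AT3G04230, the minor S16 gene, stood at 6.93, 8.49 and 6.68 CPM in AtWT and at 3.55, 3.34 and 2.80 CPM in AtWTtr. Its groups did not overlap, and the log2 fold change was -1.19 (SE 0.315, edgeR adjusted p = 0.00813). The S11 gene AT3G48930, whose RefSeq symbol EMB1080 marks an embryo-defective gene, stood at 129, 203 and 142 CPM in AtWT and 332, 219 and 252 CPM in AtWTtr, with a log2 fold change of 0.76 (SE 0.230, edgeR adjusted p = 0.0181).

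Families S7, S8 and S10 had no member called in either tr comparison. The S7 genes had log2 fold changes of 0.19 (AT5G16130), 0.00 (AT1G48830) and 0.26 (AT3G02560) in the wild type. RPS15, the leading S15 gene, was at 212, 248 and 201 CPM in AtWT and 248, 243 and 277 CPM in AtWTtr, with an overlap and a log2 fold change of 0.22 (SE 0.175, edgeR adjusted p = 0.361). Separate groups, with every AtWTtr library above every AtWT library, were seen for 30 members and for 20.9% of all genes, and the reverse for 1 member and for 27.8% of all genes. The count of 29 was 16 without AtWT replicate 1, 17 without AtWT replicate 3, 19 without AtWTtr replicate 1 and 19 without AtWTtr replicate 3, and 15 of the 29 were called in each of the 6 fits that left out 1 library. With only the 6 libraries compared in the fit it was 17.

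**Figure D4:**
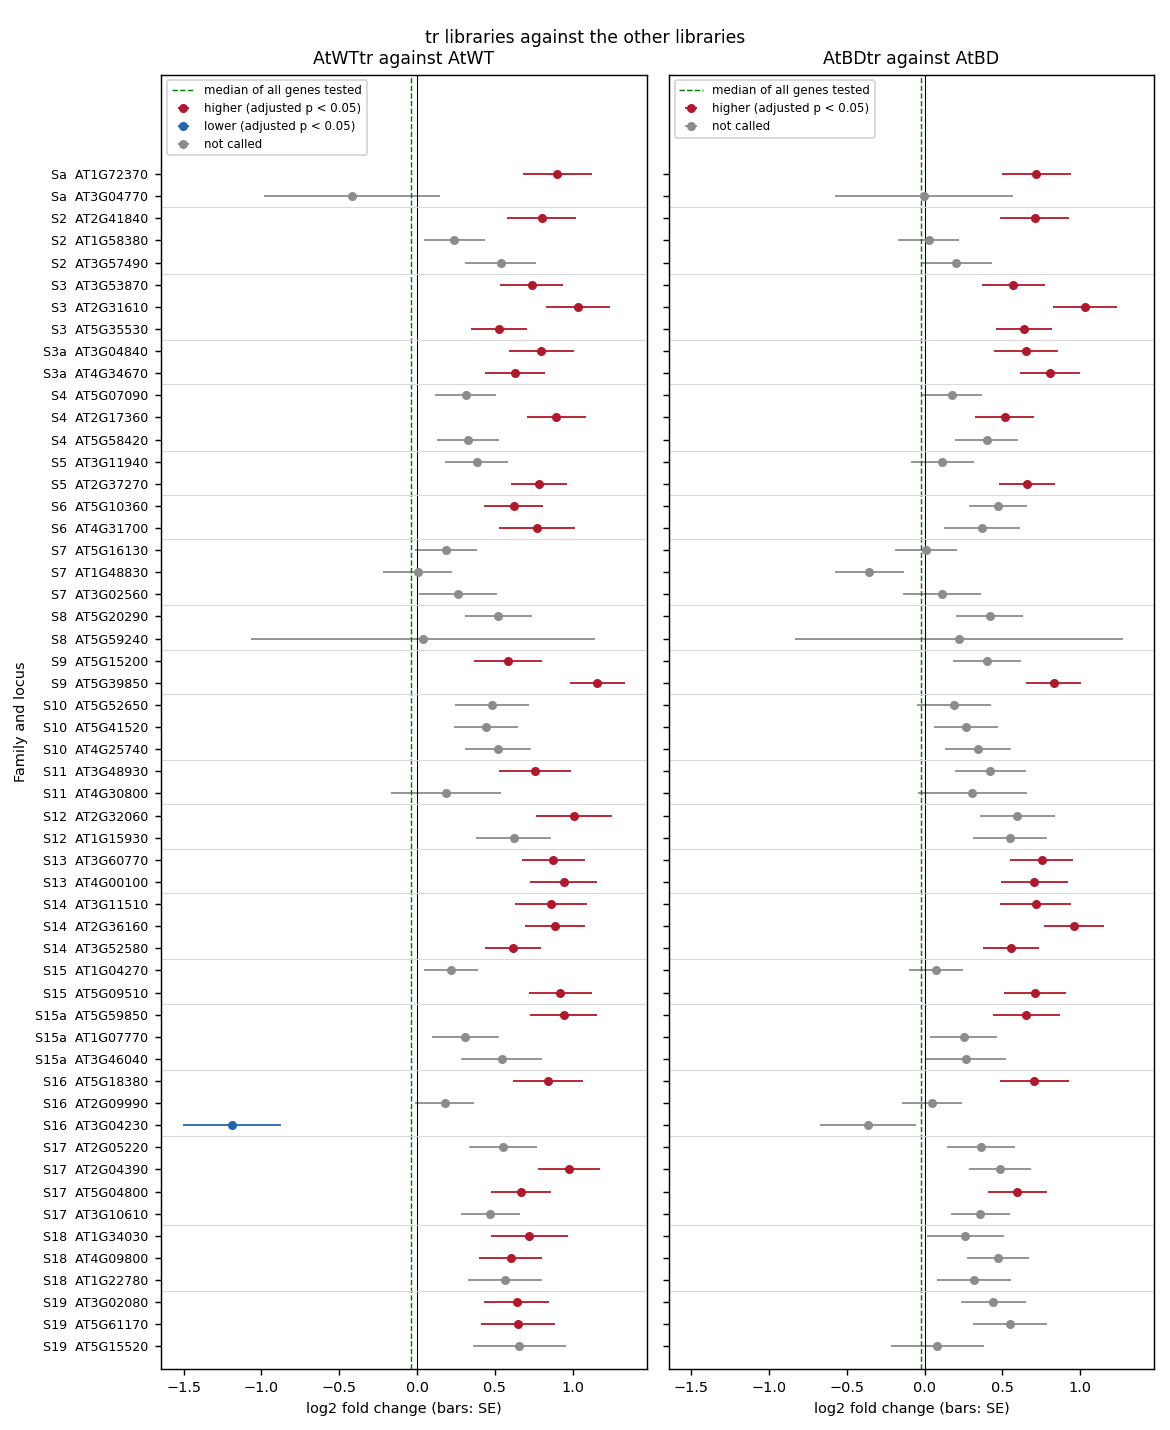
Log2 fold change of members tested, with its SE as a bar, in the tr libraries against the other libraries of the wild type (left) and the mutant (right), on the TMM scale; red and blue mark members called higher and lower and the dashed line the median of all genes. On this scale 29 members on the left and 19 on the right are higher, while under library totals none is, and the S7 genes lie between -0.36 and 0.26.

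The mutant showed the same direction with fewer calls. Of the 55 members, 19 were higher in AtBDtr than in AtBD and 0 were lower (edgeR, adjusted p under 0.05), against 12.9% of all genes called higher and 16.8% lower. All 19 were among the 29 of the wild type, so they are 19 of 29 in the one list and 19 of 19 in the other, in 13 families. DESeq2 gave 18 members higher and 0 lower, against 2528 and 3916 of the 25862 genes it fitted. An unadjusted edgeR p under 0.05 was reached by 26 members and by 7872 of all 19376 genes. The median log2 fold change was 0.42, against -0.03 for all genes. With library totals the median of all genes moved by -0.71. Of the members, 0 were then called higher and 6 lower, against 419 and 7388 of all 19376 genes.

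AT2G31610 and AT2G36160 led. The former, of S3, had 130, 124 and 136 CPM in AtBD and 234, 311 and 250 CPM in AtBDtr, with a log2 fold change of 1.03 (SE 0.203, edgeR adjusted p = 0.00131). AT2G36160 of S14, a protein near the exit side of the messenger RNA path, had 89.1, 96.4 and 78.3 CPM in AtBD and 145, 196 and 171 CPM in AtBDtr, with a log2 fold change of 0.96 (SE 0.193, edgeR adjusted p = 0.00152). Neither gene's groups overlapped. AT5G39850 of S9 followed at 0.83, AT4G34670 of S3a at 0.81 and AT3G60770 of S13 at 0.75.

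Among the members not called, AT1G48830 of S7 had a log2 fold change of -0.36 and AT3G04230 of S16 one of -0.36. For 27 members every AtBDtr library was above every AtBD library, against 21.4% of all genes, and for 0 every one was below, against 25.5%. The count of 19 was 8 without AtBD replicate 1, 6 without AtBD replicate 2, 4 without AtBDtr replicate 2 and 10 without AtBDtr replicate 3. Only AT2G31610, AT2G36160, AT4G34670 and AT5G39850 were called in all 6 fits that left out 1 library.

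Other ribosomal genes are given beside the shares of all genes called higher, 15.2% in AtWTtr and 12.9% in AtBDtr. Of 32 other 40S genes tested (S20 to S30 and RACK1), 17 were higher and 0 lower in AtWTtr and 9 were higher and 0 lower in AtBDtr, with 53.1% and 28.1% higher and median log2 fold changes of 0.56 and 0.43. Of 46 genes of the large (60S) subunit, 18 were higher and 3 lower in AtWTtr, and 6 were higher and 1 lower in AtBDtr, with medians of 0.54 and 0.32. The share of this 60S list called higher was thus 39.1% in AtWTtr, while in AtBDtr it was close to that of all genes. The list was picked by product name and left out names shared with other protein families. It therefore does not cover the whole large subunit. Of 16 genes of ribosome biogenesis and the TOR pathway, 6 and 8 were higher, with medians of 0.30 and 0.61. These counts stand on the TMM scale.

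The members were also compared among themselves along a few lines. Those with a site II match had a median log2 fold change of 0.62 (34 members) and those without one of 0.60 (21 members) in the wild type, and 0.42 and 0.32 in the mutant. The 9 tested members with a telo box had medians of 0.38 and 0.22, and the 46 without one of 0.62 and 0.45. Across the 55 members, which share the same libraries, the log2 fold change was related to the mean level per kb with Spearman's rho of 0.42 in the wild type and 0.40 in the mutant, and to exon length with -0.01 and 0.03. That mean level includes the tr libraries, which also enter the fold change, so part of a positive relation can be built in. These are descriptions over genes, which are not independent replicates.

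Between genotypes no member was called. In AtBD against AtWT 0 of 55 members passed edgeR's adjusted threshold, as did 12 of all genes (0.0619%), and DESeq2 also called 0 members. At an unadjusted edgeR p under 0.05 there were 2 members, against 1181 of all 19376 genes. They were AT5G39850 of S9, with a log2 fold change of 0.53 (SE 0.175, edgeR adjusted p = 0.535), and AT3G57490 of S2, with 0.66 (SE 0.229, edgeR adjusted p = 0.600). For AT5G39850 the CPM values were 41.3, 54.5 and 39.8 in AtWT and 57.3, 67.8 and 71.0 in AtBD. For AT3G57490 they were 16.0, 17.6 and 15.4 in AtWT and 29.4, 25.04 and 23.0 in AtBD. Both were higher in all 3 mutant libraries, as the only 2 members whose groups did not overlap in that direction, against 8.82% of all genes.

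The members as a group stood slightly above 0 in AtBD on the TMM scale. The log2 fold change was above 0 for 52 of the 55 and for 9692 of all 19376 genes, with medians of 0.15 and 0.00. With library totals, the median of all genes moved by -0.23. The log2 fold change was then above 0 for 13 members and for 4563 of all 19376 genes. The median of the members was then -0.07. In AtBDtr against AtWTtr 0 members were called, while 10 of all genes were (0.0516%). There 26 members were above 0, as were 9929 of all 19376 genes, and the members' median was -0.01. No member reached an unadjusted p under 0.05 there with edgeR, against 986 of all 19376 genes, and DESeq2 called 0 members.

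The test of the genotype difference in the tr change called 0 members and 0 of all genes (0%), with edgeR and for the members also with DESeq2. No member had an unadjusted edgeR p under 0.05, against 790 of all 19376 genes. The difference was below 0 for 47 of 55 members and for 9882 of all 19376 genes, with medians of -0.15 and -0.01. With library totals, the median of all genes moved by 0.24. The difference was then above 0 for 38 members and for 13320 of all 19376 genes. The smaller number of calls in the mutant is therefore not shown to be a genotype difference. The widest single values were 0.82 for AT3G04230 of S16 and -0.58 for AT5G15520 of S19, of whose exonic bases 15.1% overlap a neighbouring gene.

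**Figure D5:**
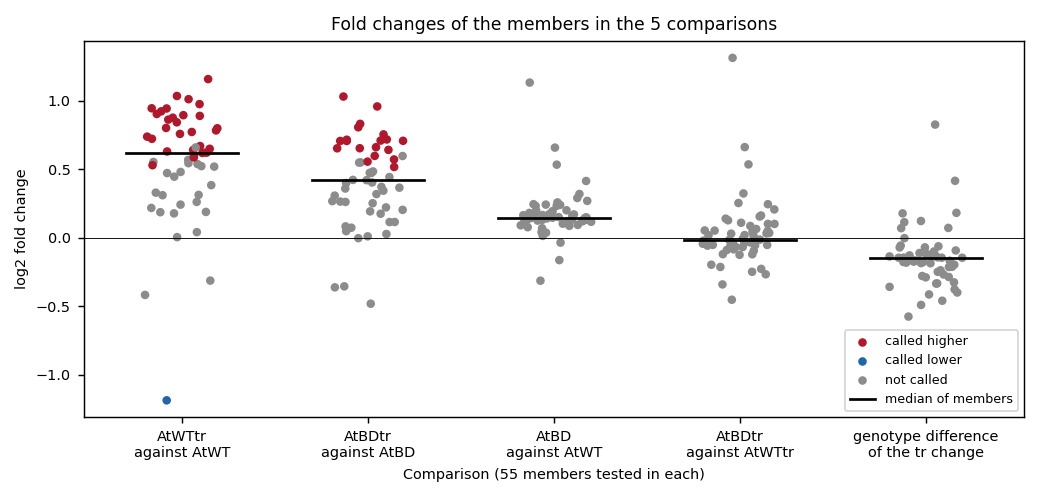
Log2 fold changes of the 55 members in each of the 5 comparisons on the TMM scale, with 1 point per member coloured by its call and a bar at the median of the members. The medians are 0.62 and 0.42 in the tr comparisons, where library totals turn the sign, and lie between -0.15 and 0.15 in the other 3, where nothing is called.

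No leading share passed the test between genotypes. The leading share differed in 0 of 21 families by the exact permutation test within library types, and without 1 library at a time in 0 to 3. Within 1 library type, 3 leading shares had groups that did not overlap, which 3 against 3 libraries cannot take below p = 0.1 in an exact test. In S2 AT2G41840 held 79.6% ± 1.32 in AtWT and 76.4% ± 0.892 in AtBD (SD, n = 3). In AtWTtr and AtBDtr, the S5 gene AT3G11940 held 73.7% ± 0.062 and 70.9% ± 0.605, and the S3a gene AT3G04840 held 66.5% ± 1.46 and 61.8% ± 1.73 (SD, n = 3). The S9 gene AT5G15200 came closest, at 82.3% ± 2.24 in AtWT and 78.2% ± 2.86 in AtBD, and 75.9% ± 2.54 in AtWTtr and 72.4% ± 3.87 in AtBDtr (SD, n = 3, exact permutation p = 0.05). Among paralogs that do not lead, AT3G57490 of S2 gained 1.76 points in the mutant (exact permutation p = 0.015), at 7.45%, 6.71% and 6.65% in AtWT and 10.3%, 8.77% and 9.39% in AtBD, while the tr libraries of both genotypes overlapped.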

How the data were processed

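Seeds of 4 groups of 3 libraries were analysed. The authors deposited raw counts per gene, in a table that equals the unstranded column of their per-library counts in all 12 libraries. Reads fell evenly on both strands (49.9% to 50.7%), so antisense reads cannot be told apart. Per the submitters' processing notes the tools were TopHat, Cufflinks and Cuffdiff with TAIR10, and the counter is not given in the sources used here. Reads mapping to several places, ambiguous reads and reads outside genes (1.40% to 13.8%, 0.724% to 1.50% and 0.659% to 8.88% in the per-library files) are not in the table. FPKM values of the other 6 samples were not used.

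Counts were fitted with edgeR 4.0.16 in R 4.3.3 (filterByExpr, TMM, robust quasi-likelihood test, 1 coefficient per group, all 12 libraries), with Benjamini-Hochberg adjustment over 19376 genes, and the scripts were tested on simulated data. DESeq2 1.42.0, other scalings, no filter and fits without 1 library were tried. Nothing says that replicates came from separate plants, so p-values measure the spread between these samples. Shares were tested by permuting libraries within strata (400 arrangements, 21 families, unadjusted p). Sequences, exon lengths and coordinates were read from RefSeq's TAIR10.1 (Biopython 1.88). The promoter window was 250 bases. Named members were the leading paralog of each family, those with the 10 smallest adjusted p or the 5 highest or 5 lowest fold changes, and those with few or no counts, and the members quoted in the share comparisons beyond these were chosen after their values were seen. The members and lists were chosen with earlier results of these data known. The 60S list was taken from product names in the reference annotation, without names shared with organellar or other protein families, and is incomplete. Counts and medians cover all members, and 1 withheld item is not reported here.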

Additional observations from a re-analysis of the deposited data

How the results depend on the processing

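The member counts of the tr comparisons depended on scaling and on single libraries. With library totals in place of TMM, 0 members were higher and 9 lower in the wild type, and 0 higher and 6 lower in the mutant. Of all 19376 genes, 420 were then higher and 10177 lower in the wild type, and 419 higher and 7388 lower in the mutant. With only the 6 libraries compared, 17 were higher in the wild type. Without 1 library at a time the higher counts were 16 to 36 in the wild type and 4 to 15 in the mutant, and the leading share differed between genotypes in 0 to 3 families. The cause was not tested. The counts of 0 in the genotype comparisons and in their difference were 0 under every alternative run.

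With library totals, which moved the median of all genes by -0.95 in the wild type and -0.71 in the mutant, 50 and 49 of the 55 members had log2 fold changes below 0, against 3 and 4 with TMM. Of all 19376 genes, 17253 and 16085 were below 0 with library totals. Of the members named, those called lower there or changing sign relative to that median had -0.74 for AT1G04270, -0.91 for AT1G48830, -0.63 for AT5G07090, -0.73 for AT5G16130 and -0.97 for AT5G59240 in the wild type, and -0.64 for AT1G04270 and -0.66 for AT3G04770 in the mutant. With RLE scaling the values that changed sign were -0.058 for AT1G48830 and -0.012 for AT5G59240 in the wild type and -0.043 for AT5G16130 in the mutant, and DESeq2 gave -0.058, -0.010 and -0.043. With only the 6 libraries compared they were -0.028 for AT1G48830 and -0.0021 for AT5G16130. Without 1 library at a time AT1G48830 ranged from -0.16 to 0.26, AT5G16130 from -0.020 to 0.29 and AT5G59240 from -0.44 to 0.61 in the wild type, and AT5G16130 from -0.16 to 0.078, AT3G04770 from -0.32 to 0.31, AT1G04270 from -0.012 to 0.14 and AT3G11940 from -0.024 to 0.21 in the mutant.

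The replicate numbers showed no pairing: 0 of 12 same-numbered pairs deviated together with a correlation over 0.1 (-0.277 to 0.0936). With the replicate block, 25 members were higher and 1 lower in the wild type and 13 higher and 0 lower in the mutant. Depth limits only the members with few counts.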
